A study of Homo sapiens with 4 samples.

Results

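RNA levels of centromere, kinetochore and spindle checkpoint genes were compared between RCC4 cells with PML knockdown and control RCC4 cells. The set holds 48 genes of 59050 in the count table, chosen by gene symbol as subunits of the centromere, the kinetochore, the spindle checkpoint and the chromosomal passenger complex. All 48 were found, and 47 of them were among the 16516 genes with enough counts to be tested. RCC4 is an established human clear cell renal cell carcinoma (ccRCC) line. Control cells (shCtrl) carried a scrambled shRNA and knockdown cells (shPML) an shRNA against PML, both inducible by doxycycline and delivered by lentivirus. All cells of both groups, grown with tetracycline-free serum, received doxycycline at 100 ng/ml for 96 h. The groups had 2 libraries each, from 2 experiments with separate lentiviral infections, and the replicate number of a library was read as its experiment. shPML stands here for 1 hairpin, so an effect of that sequence on other transcripts cannot be told apart from an effect of lower PML.

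Centromeres are the chromosomal sites marked by the histone H3 variant CENP-A, on which the kinetochore is assembled. The inner kinetochore (the constitutive centromere-associated network) sits on this chromatin, and the outer kinetochore (the KNL1, MIS12 and NDC80 complexes) binds spindle microtubules. The spindle checkpoint delays anaphase while kinetochores are unattached, and the chromosomal passenger complex, with the kinase Aurora B, releases wrong attachments. Many of these genes are known to be transcribed mainly in G2 and M phase of cycling cells.

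The libraries held 53716181 and 36964369 counted reads in shCtrl replicates 1 and 2, and 69870617 and 27781193 in shPML replicates 1 and 2. Levels are given as CPM, counts scaled to library size by the TMM method, and per kilobase of gene length where genes are compared with each other. That length covers the exons of all annotated transcripts of a gene (13205 bases for NSL1, 1342 for SPC25). Levels per kilobase, and rankings by them, therefore depend on the annotation. PML was at 93.1 and 136 CPM in shCtrl replicates 1 and 2 and at 54.9 and 87.6 CPM in shPML. The shPML value was the lower in each experiment, and shPML replicate 2 lay just below shCtrl replicate 1. In the fit, PML had a log2 fold change of -0.69 (SE, its standard error, 0.30; adjusted p = 0.32, edgeR) without a block and of -0.70 with the replicate number as a block (adjusted p = 4.2e-07, edgeR). The submitters state in a later update that the labels of 2 samples had been exchanged, and the corrected labels were used.

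The shPML library of replicate 2 stood apart from the others by blood cell transcripts. PTPRC, the pan-leukocyte antigen, had 346 counts there and 0, 0 and 7 counts in shCtrl 1, shCtrl 2 and shPML 1, and PECAM1, an endothelial and myeloid adhesion molecule, had 113 against 0, 0 and 3. CD3E was at 0 in every library and VWF had between 6 and 14 counts. In a list of 16 monocyte and macrophage markers, written after the counts had been seen, 13 were over 10 times higher in shPML replicate 2 than in any other library. The summed level of that list, in CPM before TMM, was 3.5 and 3.63 in shCtrl, 4.19 in shPML replicate 1 and 357 in shPML replicate 2, with C1QB at 0 counts in the last. The 5 markers of the renal carcinoma line were present in every library, on the same scale. Over the 4 libraries PAX8 was between 309 and 422 CPM, KRT18 between 180 and 209 and CA9 between 65.2 and 120. KRT8 was at 445 and 505 CPM in shCtrl and at 357 and 384 in shPML, and VIM at 3252 and 3845 CPM in shCtrl and at 4352 and 5814 in shPML. The part of these transcripts in the results below was not tested, but values are given for replicate 1 alone, where they were near the control level.

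Centromere and kinetochore transcripts were lower in shPML almost throughout. The median log2 fold change of the 47 members tested was -0.97, with a range from -1.58 to -0.08, against 0.01 over all genes tested, and 47 of 47 fold changes were negative. The lowest log2 fold changes, between -1.58 and -1.22, were those of CENPQ, BIRC5, SKA1, SPC25, SKA3, CENPA, CENPI, MAD2L1 and AURKB. Those of NSL1, MIS12, CENPB, CENPT and ZW10 were nearest to 0, between -0.11 and -0.08. Within the experiments the median log2 ratio of shPML to shCtrl was -0.87 in replicate 1 and -1.03 in replicate 2, and over all genes it was 0.00 in both. A total of 44 members were lower in shPML in both replicates, as were 37.1% of all genes tested, and CENPT, MIS12 and ZW10 had ratios of opposite sign. In 43 members the higher shPML library was below the lower shCtrl library (24.9% of all genes), and in 0 members the groups were separated the other way (23.1% of all genes). The 4 members whose groups overlapped were CENPB, CENPT, MIS12 and ZW10.

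With 2 libraries a group, the test depended on how the experiments entered the fit. Without a block, edgeR called 1 member lower, BIRC5, and 0 higher at the thresholds of 0.05 on the adjusted p and 0.5 on the size of the log2 fold change (0.333% of all genes were called lower and 0.0787% higher), while 38 members had an unadjusted p under 0.05 with lower levels and 0 with higher (10.1% and 7.8% of all genes). With the replicate number as a block, 38 members were called lower and 0 higher, where 10.5% of all genes were called lower and 8.57% higher. DESeq2 called 31 members lower without the block and 36 with it (6.44% and 9.93% of the genes with an adjusted p). Members not called with the block were CENPB, CENPC, CENPP, CENPT, DSN1, NSL1, PMF1, MIS12 and ZW10. In replicate 1 alone, without the library that held the blood cell transcripts, 38 members had a log2 ratio under -0.5 (17.5% of all genes). Set against the shCtrl libraries of both experiments, shPML replicate 1 lay below both in 45 members (37.1% of all genes). In replicate 2 alone, 38 members had a ratio under -0.5 (20.3% of all genes). An exact permutation test of 2 libraries against 2 cannot give a two-sided p under 0.333, so none was used for single genes.

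**Figure D1:**
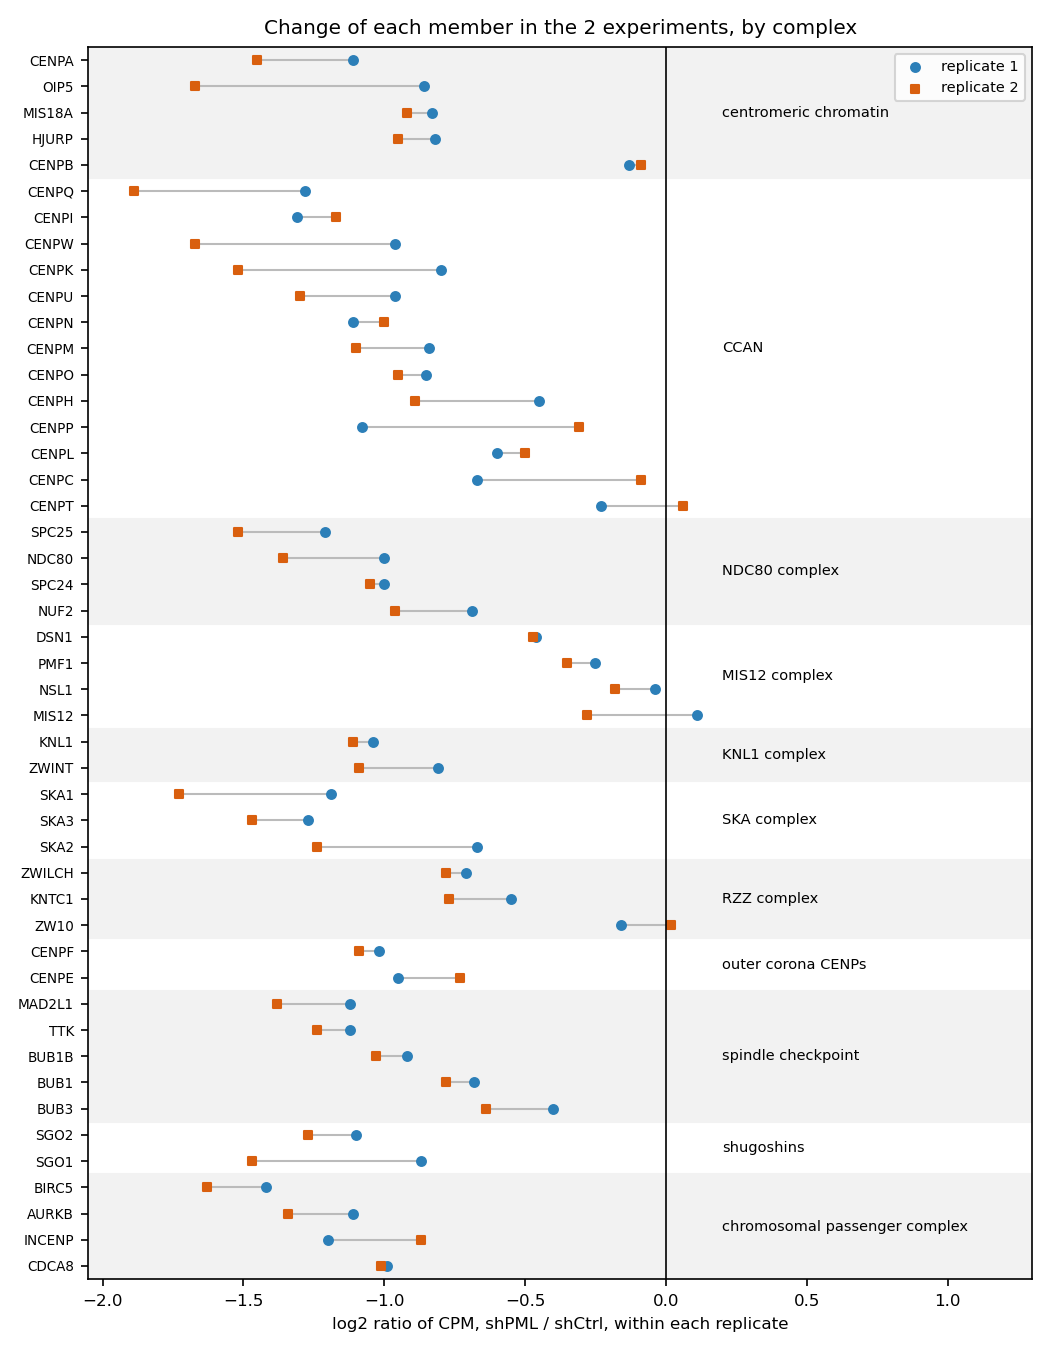
log2 ratio of CPM in shPML to shCtrl for the 47 members tested, within replicate 1 (circles) and replicate 2 (squares), grouped by complex; a line joins the 2 values of a gene and CCAN stands for the constitutive centromere-associated network. Most pairs lie below -0.5, and both values lie above -0.5 for the 4 genes of the MIS12 complex, CENPB, CENPT and ZW10.

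By complex, the medians of the log2 fold change were nearest to 0 in the MIS12 complex and lowest in the SKA complex, in each replicate and in the fit. They were -1.36 for the SKA complex, -1.17 for the shugoshins, -1.12 for the chromosomal passenger complex, -1.09 for the NDC80 complex and -1.01 for the KNL1 complex. The checkpoint genes were at -0.97, the constitutive centromere-associated network and the outer corona at -0.95, centromeric chromatin at -0.88, the RZZ complex at -0.64 and the MIS12 complex at -0.21. In replicate 1 alone these medians ran from -1.19 (SKA) to -0.55 (RZZ) and -0.15 (MIS12), and in replicate 2 from -1.47 to -0.77 and -0.32 for the same complexes. All tested genes of 7 complexes (NDC80, KNL1, SKA, corona, checkpoint, shugoshins and chromosomal passenger) were called lower with the block. So were 4 of 5 in centromeric chromatin, 10 of 13 in the network, 2 of 3 in RZZ and 0 of 4 in MIS12. Over all genes tested the share called lower with the block was 10.5%, so 0 of 4 does not set the MIS12 complex apart from genes in general. The complexes hold between 2 and 13 tested genes each, and the differences between them were not tested.

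Promoter sequences of 39 of the 48 members were found in RefSeq (GRCh38.p14) and were searched, on both strands, for words known from genes of the cell cycle. These were the cell cycle genes homology region or CHR (TTTGAA or TTCGAA), to which the DREAM and MuvB complexes bind, the CCAAT box (CCAAT), which is bound by NF-Y, and 4 E2F words (TTTGGCGC, TTTCCCGC, TTTGCCGC or TTTCGCGC). The window ran from 250 bases before the RefSeq start to 50 after it. That start can differ from the start of the gene model used for counting. For AURKB, CENPI, CENPN, CENPO, ZWILCH and MAD1L1 the window lies inside the gene model, and for CENPP and CENPW before it. Words near the counted start may be missed there. Promoters of 4 members are printed to 30 bases after the start, as examples chosen for their words: CENPA and CDCA8, called lower in shPML with the block, hold the CHR word close to the start, and MIS12 and NSL1, not called, lack it. Other members do not follow this split, as the counts show. Capitals mark the words, on either strand, and in CDCA8 the CHR word and a CCAAT box on the other strand share 1 base. They lie at chr2:26785806-26786085 (CENPA, plus strand), chr1:37692266-37692545 (CDCA8, plus strand), chr17:5486124-5486403 (MIS12, plus strand) and chr1:212791748-212792027 (NSL1, minus strand).
CENPA: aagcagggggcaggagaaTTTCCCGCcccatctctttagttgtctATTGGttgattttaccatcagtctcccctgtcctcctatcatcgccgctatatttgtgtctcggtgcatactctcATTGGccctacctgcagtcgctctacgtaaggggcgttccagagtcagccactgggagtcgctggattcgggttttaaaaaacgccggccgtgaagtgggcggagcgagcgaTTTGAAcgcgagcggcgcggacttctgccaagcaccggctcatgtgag
CDCA8: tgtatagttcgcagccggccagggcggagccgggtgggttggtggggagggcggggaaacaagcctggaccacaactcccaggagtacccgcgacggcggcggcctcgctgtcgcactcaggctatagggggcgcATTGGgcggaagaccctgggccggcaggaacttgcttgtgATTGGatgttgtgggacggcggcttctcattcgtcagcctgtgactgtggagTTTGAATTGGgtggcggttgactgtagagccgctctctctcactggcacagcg
MIS12: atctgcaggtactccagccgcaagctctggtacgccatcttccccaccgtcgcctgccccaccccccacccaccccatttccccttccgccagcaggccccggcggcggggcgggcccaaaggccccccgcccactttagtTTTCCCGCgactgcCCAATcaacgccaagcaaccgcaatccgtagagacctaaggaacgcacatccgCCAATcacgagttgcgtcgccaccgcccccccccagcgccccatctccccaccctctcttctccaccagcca
NSL1: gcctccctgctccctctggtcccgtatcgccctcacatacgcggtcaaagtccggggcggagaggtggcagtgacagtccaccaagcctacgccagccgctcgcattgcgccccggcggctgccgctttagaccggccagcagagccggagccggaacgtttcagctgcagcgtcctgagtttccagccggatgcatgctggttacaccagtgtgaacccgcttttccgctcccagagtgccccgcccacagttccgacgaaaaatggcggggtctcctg

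Counted from the RefSeq start, the CHR word begins at position -18 in CENPA and at -23 in CDCA8. MIS12 holds 2 CCAAT boxes and the E2F word TTTCCCGC, and NSL1 holds none of the words. Among the 39 members the CHR word was in 21 promoters (53.8%), and among all 27305 RefSeq promoters it was in 16.6% (11% of the 10632 promoters of genes tested). The CCAAT box was in 25 member promoters (64.1%) and in 35.7% of all (36.7% of those of genes tested). Both words together were in 15 (38.5%) and in 6.58% of all (4.66% of those of genes tested). E2F words were few, in 4 member promoters (10.3%) and 3.33% of all (5.23% of those of genes tested). Members with the CHR word had a median change of -1.05 on the log2 scale and the 17 tested members without it a median of -0.85, and over all tested genes these medians were -0.06 and 0.02. The medians of members with and without the CCAAT box were the same as for the CHR word, -1.05 and -0.85, and those with and without an E2F word were -1.15 and -0.98. Of the 29 members with a promoter that were called lower with the block, 19 held the CHR word. Of the 9 not called, CENPC and ZW10 held it, at positions -90 and -224. In HJURP, called lower, its only position was -111, and the other called holders had a CHR word between -31 (ZWINT) and 41 (CENPF). The members without a RefSeq promoter were BIRC5, KNL1, TTK, BUB3, KNTC1, MIS18A, CENPH, CENPL and CENPM. All of these were called lower with the block, so the search left out called members only. CENPQ, with the lowest log2 fold change of the set, -1.58, holds a CCAAT box and no CHR word. A match describes letters in this window and was not tested as a binding site.

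**Figure D2:**
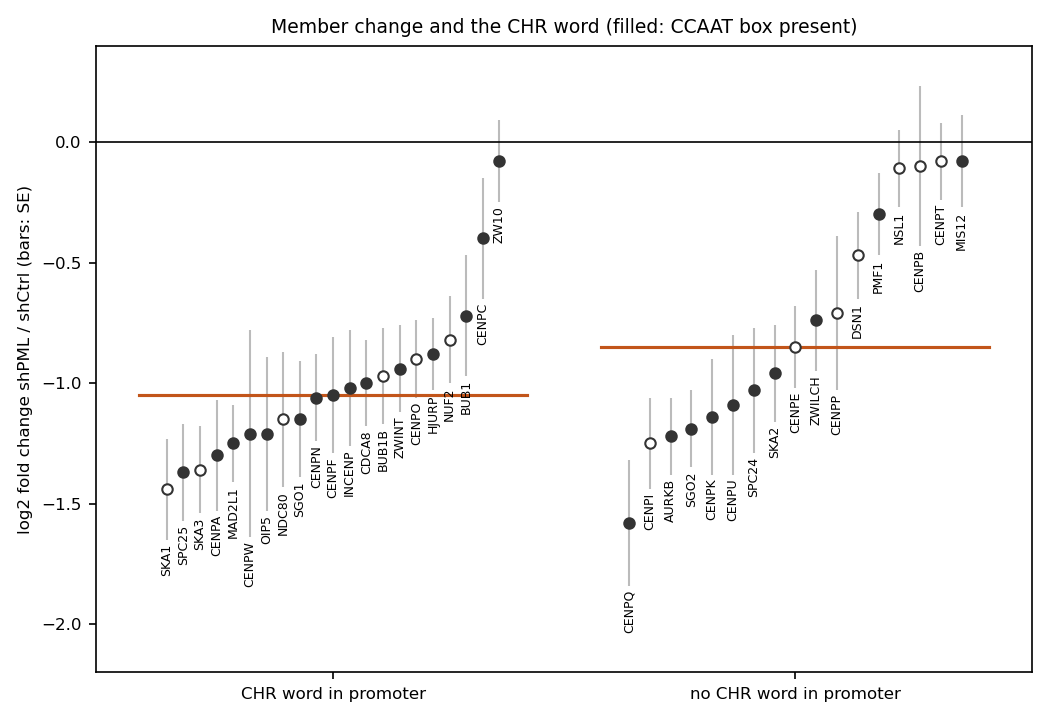
log2 fold change of shPML to shCtrl (points) with its standard error (bars) for the 38 tested members with a RefSeq promoter, by presence of the CHR word; filled points also hold a CCAAT box and horizontal lines are medians (-1.05 with the word, -0.85 without). Both groups span nearly the whole range, and ZW10 holds the word with a value near 0.

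Among genes of centromeric chromatin and its loading, CENPA and its loading factors were lower in shPML and CENPB was not called. CENPA, the histone variant itself, lies on chromosome 2 from 26786056 to 26794589 (GRCh38, plus strand) and was at 18.4 and 25.4 CPM in shCtrl replicates 1 and 2 and at 8.52 and 9.24 CPM in shPML. Both shPML libraries were below both controls, at 46.3% of the control in replicate 1 and 36.4% in replicate 2. Fitted without the block, CENPA had a change of -1.30 (SE 0.23, adjusted p = 0.0746, edgeR), and -1.28 with the block (adjusted p = 3.3e-10). The chaperone HJURP, which deposits CENP-A, was at 67.9 and 65.6 CPM in shCtrl and at 38.5 and 34.0 CPM in shPML. MIS18A and OIP5 (also known as MIS18B), of the complex that licenses this deposition, had log2 fold changes of -0.88 and -1.21 and were called lower with the block (adjusted p = 8e-07 and 1.3e-05, edgeR), as was HJURP at -0.88 (adjusted p = 1.2e-08). OIP5 shares 38.7% of its length with OIP5-AS1 on the opposite strand, and the strand setting of the counting is not given in the sources used here. CENPB, which binds the CENP-B box of alpha satellite DNA, was at 137 and 217 CPM in shCtrl and at 125 and 204 CPM in shPML. Its replicates differed more from each other than its groups did, and its fold change was -0.10 (SE 0.33, adjusted p = 0.923, and 0.467 with the block, edgeR). CENPB made up 46.1% and 54.5% of the summed level per kilobase of the 5 genes in shCtrl, and 59.2% and 71.5% in shPML.

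The 13 genes of the constitutive centromere-associated network had a median log2 fold change of -0.95, and 10 of them were called lower with the block (10.5% of all genes). CENPQ, a subunit of its CENP-O group, was at 10.3 and 11.9 CPM in shCtrl replicates 1 and 2 and at 4.23 and 3.16 CPM in shPML, and in the fit it had the largest change of the network (in replicate 1 alone CENPI did, at -1.31 against -1.28). On the log2 scale CENPQ changed by -1.58 (SE 0.26, adjusted p = 0.0681, edgeR), and -1.57 with the block (adjusted p = 2e-08). CENPT, which recruits the NDC80 complex through a long tail, was at 46.1 and 44.1 CPM in shCtrl and at 39.2 and 46.1 CPM in shPML, so its groups overlapped. The fold change of CENPT was -0.08 (SE 0.16, adjusted p = 0.871, and 0.65 with the block, edgeR). Its partner in the histone-fold complex, CENPW, was in contrast at 31.2 and 21.9 CPM in shCtrl and 16 and 6.84 CPM in shPML. CENPW had a log2 fold change of -1.21 (adjusted p = 0.241, edgeR), and -1.28 with the block (adjusted p = 1.4e-10). Without shPML replicate 1 its log2 fold change was -1.96, and without shPML replicate 2 it was -0.72. CENPC, the scaffold that binds CENP-A nucleosomes directly, was at 13.0 and 9.17 CPM in shCtrl and at 8.12 and 8.62 CPM in shPML, with a ratio of -0.67 in replicate 1 and -0.09 in replicate 2. CENPC was not called with the block (-0.40, adjusted p = 0.0941, edgeR), nor was CENPP, a further CENP-O group subunit (-0.72, adjusted p = 0.0579, edgeR), whose exons share 31.7% of its length with IPPK on the opposite strand. The remaining members, CENPH, CENPI, CENPK, CENPL, CENPM, CENPN, CENPO and CENPU, had log2 fold changes between -1.25 (CENPI) and -0.55 (CENPL) and were all called lower with the block. CENPO shares 22.9% of its length with ADCY3, CENPU 17.7% with PRIMPOL and CENPN 14.5% with CMC2, each on the opposite strand. By level per kilobase, CENPT was at 17.6 CPM in shCtrl and 15 CPM in shPML of replicate 1, and at 16.8 and 17.6 CPM in replicate 2. CENPW was at 39.3 and 20.1 CPM per kilobase in replicate 1, above CENPT in both libraries, and at 27.5 and 8.6 in replicate 2, above CENPT in shCtrl and below it in shPML.

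Of the outer kinetochore complexes, NDC80 and KNL1 subunits were lower in shPML and none of the MIS12 complex was called. With the block, 10.5% of all genes were called lower. In the NDC80 complex, the main microtubule binder, SPC25 was at 15.1 and 17.0 CPM in shCtrl replicates 1 and 2 and at 6.47 and 5.93 CPM in shPML. NUF2 changed least of its 4 subunits, from 32.5 and 31.8 CPM in shCtrl to 20.1 and 16.3 CPM in shPML. On the log2 scale the change was -1.37 for SPC25 (SE 0.20, adjusted p = 0.0618, edgeR) and -0.82 for NUF2 (SE 0.18, adjusted p = 0.105, edgeR), with NDC80 at -1.15 and SPC24 at -1.03 between them, and 4 of 4 were called lower with the block. KNL1, which lies on chromosome 15 from 40594020 to 40664342 and is the landing site for BUB proteins, was at 40.1 and 38.9 CPM in shCtrl and at 19.5 and 18 CPM in shPML. Its replicates agreed within 2 CPM in each group, and it had a log2 fold change of -1.07 (SE 0.15, adjusted p = 0.0618, and 3.2e-10 with the block, edgeR). ZWINT, its partner, was at 73.8 and 71.0 CPM in shCtrl and at 42.1 and 33.4 CPM in shPML, which gave a log2 fold change of -0.94 (adjusted p = 0.0822, and 2.1e-09 with the block, edgeR).

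The MIS12 complex links the inner kinetochore to NDC80 and KNL1, and its median log2 fold change was -0.21. DSN1 was at 59.2 and 50.3 CPM in shCtrl replicates 1 and 2 and at 43.0 and 36.3 CPM in shPML, the largest change among its 4 subunits. The groups of DSN1 did not overlap, and with the block its adjusted p was 0.00135 (edgeR), but its log2 fold change of -0.47 was short of the 0.5 required for a call. MIS12, on chromosome 17 from 5486374 to 5490814, was at 19.3 and 19.9 CPM in shCtrl and at 20.8 and 16.3 CPM in shPML, the highest and the lowest of the 4 values both being shPML. NSL1 was at 22.9 and 25.1 CPM in shCtrl and at 22.3 and 22.1 CPM in shPML, a log2 fold change of -0.11 (SE 0.16, adjusted p = 0.80, edgeR). PMF1 had a log2 fold change of -0.30 (adjusted p = 0.0846 with the block, edgeR). The read-through gene PMF1-BGLAP, on the same strand, shares 49.2% of the length of PMF1 and had 0 counts. How reads in the shared part were counted is not known, so the level of PMF1 per kilobase may be too low. Summed over the 4 subunits, the level per kilobase was 49.5 and 48.0 CPM in shCtrl and 40.7 and 36.8 CPM in shPML. The NDC80 complex had nearly the same control sums, 50.1 and 55.5 CPM per kilobase, but was at 26.1 and 24.8 CPM per kilobase in shPML.

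**Figure D3:**
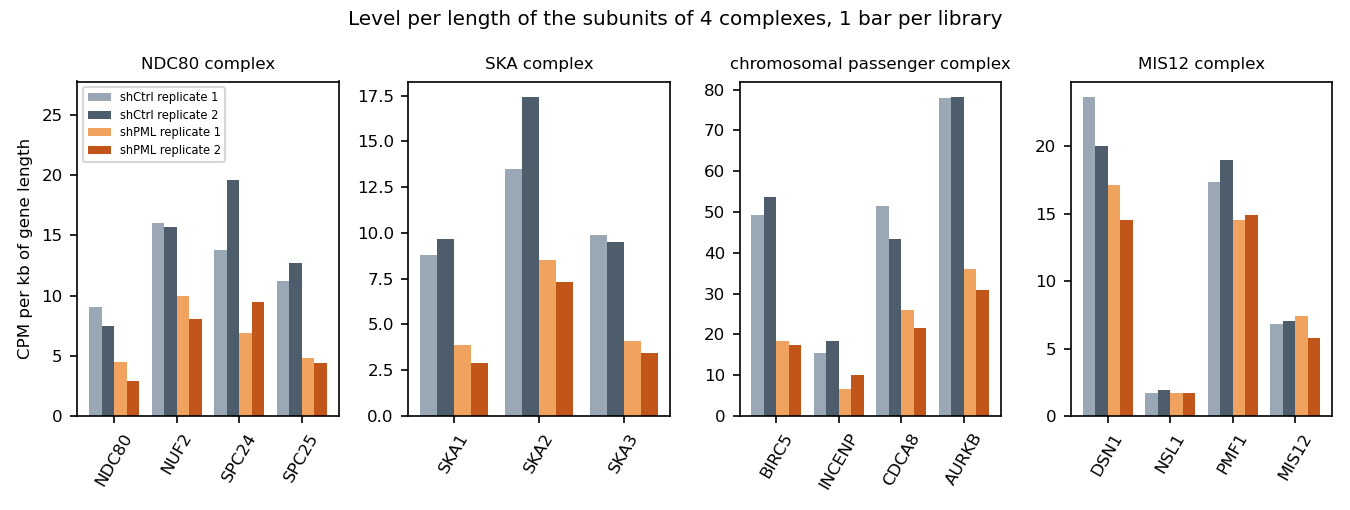
Level of each subunit of the NDC80, SKA, chromosomal passenger and MIS12 complexes, in CPM per kilobase of gene length, with 1 bar for each library (grey for shCtrl, orange for shPML); each panel has its own axis from 0. The shPML bars are below both shCtrl bars for every gene of the first 3 complexes, while those of NSL1 and MIS12 are near the control level.

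The SKA complex, which helps kinetochores follow depolymerizing microtubules, had the lowest median of the complexes, -1.36. SKA1 was at 25.5 and 28.1 CPM in shCtrl replicates 1 and 2 and at 11.2 and 8.44 CPM in shPML. SKA2 changed least of the 3, from 41.5 and 53.3 CPM in shCtrl to 26.1 and 22.5 CPM in shPML. The log2 fold change was -1.44 for SKA1 (SE 0.21, adjusted p = 0.0618, and 2.4e-12 with the block, edgeR), -1.36 for SKA3 (adjusted p = 0.0594, and 2.8e-12 with the block) and -0.96 for SKA2 (adjusted p = 0.0932, and 1.7e-08 with the block). By level per kilobase SKA2 was the most abundant of the 3 in every library and made up 42% and 47.5% of their sum in shCtrl and 51.7% and 53.7% in shPML.

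In the RZZ complex, which brings dynein and the MAD proteins to unattached kinetochores, ZWILCH and KNTC1 (ROD) were called lower with the block and ZW10 was not. ZWILCH was at 50.8 and 40.9 CPM in shCtrl replicates 1 and 2 and at 31.1 and 23.7 CPM in shPML. ZW10, which also acts in membrane traffic between the endoplasmic reticulum and the Golgi, was at 38.0 and 32.0 CPM in shCtrl and at 34.1 and 32.4 CPM in shPML, with overlapping groups. ZWILCH had a log2 fold change of -0.74 (SE 0.21, adjusted p = 0.166, and 1.4e-06 with the block, edgeR), KNTC1 of -0.64 (7.4e-06 with the block) and ZW10 of -0.08 (SE 0.17, adjusted p = 0.883, and 0.718 with the block). ZW10 was the most abundant of the 3 by level per kilobase in every library, at 36.8% and 38.0% of their sum in shCtrl and 44.8% and 51.5% in shPML. CENPF and CENPE, large proteins of the outer corona, were both lower. CENPF was at 263 and 199 CPM in shCtrl and at 130 and 93.4 CPM in shPML (log2 fold change -1.05, SE 0.24, adjusted p = 0.114, and 4.6e-13 with the block, edgeR). The kinesin CENPE was at 38.4 and 32.6 CPM in shCtrl and at 19.8 and 19.6 CPM in shPML (log2 fold change -0.85, SE 0.17, adjusted p = 0.0889, and 2.1e-07 with the block, edgeR).

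Of the 6 spindle checkpoint genes, 5 were tested and 5 were called lower with the block (10.5% of all genes). MAD2L1, which encodes the checkpoint effector MAD2, was at 52.2 and 57.0 CPM in shCtrl replicates 1 and 2 and at 24.0 and 21.9 CPM in shPML. BUB3, the adaptor that binds phosphorylated KNL1, changed least, from 128 and 127 CPM in shCtrl to 97.0 and 81.3 CPM in shPML. MAD2L1 had a log2 fold change of -1.25 (SE 0.16, adjusted p = 0.0522, and 1.5e-12 with the block, edgeR), and BUB3 of -0.52 (SE 0.16, adjusted p = 0.196, and 8e-05 with the block, edgeR). The kinases TTK (MPS1) and BUB1 and the pseudokinase BUB1B (BUBR1) had fold changes of -1.18, -0.72 and -0.97. By level per kilobase BUB3 made up 20.0% and 22.3% of the sum of the 5 genes in shCtrl and 25.9% and 27.4% in shPML, and MAD2L1 12.0% and 14.8% in shCtrl and 9.44% and 10.9% in shPML. MAD1L1, the partner of MAD2 at kinetochores, had 0, 0, 4 and 0 counts and was not tested. Of the 3445 bases of its exons, 78.7% are shared with another annotated gene on the same strand, which had between 149 and 331 counts, so its level cannot be read from this table.

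The shugoshins, which guard centromeric cohesion, were both lower. SGO2 was at 40.4 and 44.5 CPM in shCtrl replicates 1 and 2 and at 18.8 and 18.5 CPM in shPML, and SGO1 was at 12.3 and 13.6 CPM in shCtrl and at 6.71 and 4.87 CPM in shPML. For both genes the higher shPML library was below the lower control. The log2 fold change was -1.19 for SGO2 (SE 0.16, adjusted p = 0.0567, and 1.7e-11 with the block, edgeR) and -1.15 for SGO1 (SE 0.24, adjusted p = 0.102, and 1e-06 with the block, edgeR).

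The chromosomal passenger complex was lower in all 4 subunits in both experiments. BIRC5, which encodes survivin and lies on chromosome 17 from 78214186 to 78225636, was at 157 and 171 CPM in shCtrl replicates 1 and 2 and at 58.6 and 55.3 CPM in shPML. Its shPML level was 37.4% of the control in replicate 1 and 32.3% in replicate 2, the lowest of the 4 subunits in each. BIRC5 fell by 1.52 on the log2 scale (SE 0.15, adjusted p = 0.0484, edgeR), and with the block the change was the same size (adjusted p = 5.8e-18). That call sat at the edge of the threshold: with RLE normalization the adjusted p was 0.0501, and with 1 library left out it was between 0.0816 and 0.149 (1.0e-32 to 0.149 over all alternatives), while the fold change stayed between -1.59 and -1.46. AURKB, which encodes the kinase Aurora B, was at 101 and 101 CPM in shCtrl and at 46.9 and 40.2 CPM in shPML (log2 fold change -1.22, SE 0.16, adjusted p = 0.0554, and 2.1e-13 with the block, edgeR). CDCA8 (borealin) changed least in the fit, from 124 and 104 CPM in shCtrl to 62.3 and 51.7 CPM in shPML (log2 fold change -1.0, SE 0.18, adjusted p = 0.0782, and 4.4e-11 with the block, edgeR). The scaffold INCENP was at 63.6 and 75.7 CPM in shCtrl and at 27.6 and 41.4 CPM in shPML, a log2 fold change of -1.02 (1.9e-10 with the block, edgeR), and in replicate 2 alone it changed less than CDCA8 (-0.87 against -1.01). Summed over the 4 subunits, the level per kilobase was 194 and 193 CPM in shCtrl and 87.1 and 79.8 CPM in shPML. AURKB was the most abundant of the 4 per kilobase in every library, and BIRC5 went from 25.3% and 27.8% of the sum in shCtrl to 21.1% and 21.8% in shPML.

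**Figure D4:**
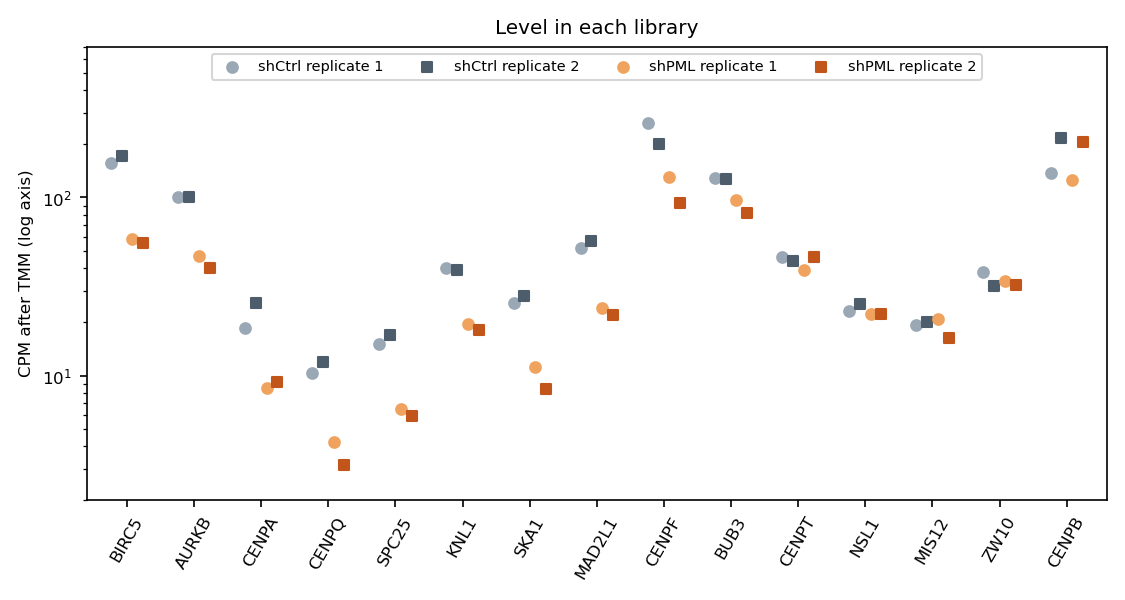
Level of 15 members in each library, in CPM after TMM normalization on a log axis (circles for replicate 1, squares for replicate 2, grey for shCtrl, orange for shPML). For BIRC5 through BUB3 and for NSL1 both shPML points lie below both shCtrl points, whereas those of CENPT, MIS12, ZW10 and CENPB overlap.

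Between experiments, 37 of the 47 members (78.7%) had the more negative ratio in replicate 2, against 50.6% of all genes tested. OIP5, CENPW and CENPK, named here after their values were seen, moved furthest in that direction, with ratios of -0.86, -0.96 and -0.80 in replicate 1 and -1.67, -1.67 and -1.52 in replicate 2. CENPP and CENPC, named likewise, went the other way, with -1.08 and -0.67 in replicate 1 and -0.31 and -0.09 in replicate 2. These genes had low counts in shPML replicate 2 (between 82 for OIP5 and 237 for CENPC), which was also the shallowest library and the one with blood cell transcripts, and the part of either was not tested. Summed over the members, the level per kilobase was 785 CPM in both shCtrl libraries, 449 CPM in shPML replicate 1 and 418 CPM in shPML replicate 2.

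A further list of 22 genes that act at centromeres or kinetochores beside these complexes had a median log2 fold change of -0.68 over the 21 tested, and CENPV, with 0, 2, 6 and 0 counts, was not tested. With the block 12 of the 21 were called lower (10.5% of all genes) and 0 higher (8.57%). Without the block edgeR called 0, while 12 lower and 0 higher had an unadjusted p under 0.05 (10.1% and 7.8% of all genes) and DESeq2 called 10 lower (6.44% of the genes with an adjusted p). KIF18A and KIF2C, kinesins that depolymerize or dampen microtubule ends, and CDC20, the anaphase activator that the checkpoint inhibits, had the largest log2 fold changes in the fit, -1.20, -1.17 and -1.17. CENPX, CENPS, BOD1, CLASP1, CLIP1, MAD2L1BP and NDEL1 had log2 fold changes between 0.06 and 0.19 and were not called in either fit. The list thus held genes near the control level as the members did.

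Of 6 proliferation genes looked at beside the members, 5 were called lower with the block (10.5% of all genes). Without it 0 were called (0.333% of all genes were called lower), with adjusted p-values from 0.068 to 0.301 (edgeR). MKI67, the gene of the Ki-67 antigen, was at 485 and 374 CPM in shCtrl replicates 1 and 2 and at 248 and 228 CPM in shPML, a log2 fold change of -0.85 (2.1e-10 with the block, edgeR). TOP2A, CCNB1, CCNA2 and MCM2 had log2 fold changes of -1.10, -1.37, -1.01 and -1.17 and were called lower with the block. PCNA, the sliding clamp of replication, had a fold change of -0.43 (adjusted p = 0.00042 with the block, edgeR), short of the 0.5 required. The median of these 6 genes was -1.06, beside -0.97 for the centromere and kinetochore genes. RNA was measured in bulk, so fewer cells in G2 and M phase and less of these transcripts in each such cell cannot be told apart.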

How the data were processed

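RNA of 2 shCtrl and 2 shPML libraries of RCC4 cells was used. The authors prepared stranded mRNA libraries, trimmed single-end reads with Trimmomatic 0.39, used STAR for alignment to GRCh38 and took gene counts on Gencode models with featureCounts 1.6.4; the strand setting is not given in the sources used here. The deposited values are raw counts per gene, from 27781193 to 69870617 a library. Columns were matched to samples by name, and a column with no number was assigned to replicate 1, since its group's other column is numbered 2.

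Counts were analysed with R 4.3.3 and edgeR 4.0.16 (filterByExpr, TMM, quasi-likelihood test on condition only, Benjamini-Hochberg adjustment over 16516 genes; a call needs both 0.05 on the adjusted p and 0.5 on the size of the log2 fold change), after the script had been tested on simulated data. DESeq2 1.42.0, the replicate block, RLE or no scaling factors, other filters and thresholds, and each library left out were the alternatives. CPM are scaled by TMM, ratios within a replicate use log2 CPM with a prior count of 2, and the standard error is the log2 fold change over the root of F. Replicate numbers were read as the 2 experiments that the study describes, which pairs the samples. Deviations from group means correlated at 0.546 between replicate 1 libraries (over genes, which are not independent), and the block lowered the common dispersion from 0.0813 to 0.0137. Without the block, p-values measure the spread between 2 infections within each group. With it, they measure how far the shPML to shCtrl ratio differs between the 2 infections. In both fits the variability of a gene was estimated with help from all genes, so a very small p-value does not stand for many infections.

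The members and all lists were chosen with earlier results of these data known. Values in every library were to be given for PML, members called without the block, and the members of each complex with the largest and the smallest change; further members with such values, and the monocyte markers, were added after the values were seen. Promoters came from RefSeq (GRCh38.p14). Overlaps were read from the gene models of the count table.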

Additional observations from a re-analysis of the deposited data

How the results depend on the processing

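The medians kept their direction across the alternatives, single members did so except CENPB, CENPT, MIS12 and ZW10, and the number of calls changed. Median log2 fold changes of the whole set and of the 11 complexes moved by less than the spread between replicates in all 12 cases under each other fit with 4 libraries. With 1 library left out, medians ranged from -1.12 to -0.85 for all members, -1.0 to -0.89 for centromeric chromatin, -1.14 to -0.80 for the constitutive centromere-associated network, -1.21 to -1.06 for NDC80, -0.27 to -0.14 for MIS12, -1.13 to -0.89 for KNL1, -1.5 to -1.23 for SKA, -0.95 (without shPML replicate 1) to -0.38 (without shPML replicate 2) for RZZ, -1.10 to -0.78 for the corona, -1.16 to -0.79 for the checkpoint, -1.30 to -1.05 for the shugoshins and -1.24 to -1.17 for the passenger complex. Such fits have no block, so they carry the difference between experiments. Members called lower numbered 1 without a block, 38 with the replicate block, 31 with DESeq2, 36 with DESeq2 and the replicate block, 0 with RLE normalization, 6 with at least 10 counts in every library, 35 without a filter and 0 to 0 with a library left out. The other centromere and kinetochore genes called lower numbered 0, and 12 with the replicate block, 10 with DESeq2, 12 with DESeq2 and the block, 1 with at least 10 counts and 10 without a filter. Over all genes, 55 were lower and 13 higher, against 1735 and 1415 with the replicate block, 898 and 577 with DESeq2, 1386 and 1109 with DESeq2 and the block, 0 and 0 with RLE normalization (adjusted p of BIRC5 0.0501), 144 and 53 with at least 10 counts, 942 and 640 without a filter, 24 higher with library size only, and 0 to 29 lower and 1 to 11 higher with a library left out. The fold change of PML passed with the replicate block (-0.70), with DESeq2 and the block (-0.69) and without a filter (-0.68, adjusted p = 0.0237, edgeR), and ranged from -1.05 without shPML replicate 2 to -0.39 without shCtrl replicate 2 or shPML replicate 1. The log2 fold change turned positive for CENPB without shCtrl replicate 2 (0.27) or shPML replicate 1 (0.21; range -0.49 to 0.27), for CENPT without shPML replicate 1 (range -0.19 to 0.03), for MIS12 without shPML replicate 2 (-0.26 to 0.10) and for ZW10 without shCtrl replicate 1 (-0.19 to 0.05). Among members called lower with the block, CENPH ranged from -1.07 (without shCtrl replicate 1) to -0.27 (without shCtrl replicate 2), and CENPW from -1.96 to -0.72 and KNTC1 from -0.95 to -0.38 (without shPML replicates 1 and 2). Without shPML replicate 2, an alternative added after seeing the data, the members with shPML below both controls numbered 45 in place of 43. Over all genes the share was 37.1% in place of 24.9%, and such a count cannot fall when an shPML library is left out. Adjusted p-values of single members spanned 1.0e-32 to 0.983 over the alternatives. The cause of these differences was not tested. With 2 libraries a group, a fit without 1 of them assumes that the lone library varies like the other group.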
